A study of Homo sapiens with 2 samples.

Results

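MYC binding was described near the start sites of 10 genes that act in protein synthesis: EIF4E, EIF4G1, EIF4A1, EIF4B, EIF4EBP1, EIF2S1, EIF3B, EIF5A, EEF1A1 and EEF2. A peak was assigned to a gene when its summit, the position with the most ChIP fragments, lay within 5 kb of a given GRCh37 start site of that gene. All 10 genes had such a peak, and 25 of the 17659 peaks in the list were assigned. The rule names genes and start sites and uses no binding value, but the genes and motifs were chosen with earlier results of these data known. MYC was mapped by ChIP-seq in TET21 cells, a derivative of the human neuroblastoma line SH-EP in which doxycycline represses a MYCN transgene. The cells ectopically expressed wild-type MYC and had been kept in 1 µg/mL doxycycline for 7 days. There was 1 ChIP library, made with a rabbit polyclonal anti-MYC antibody, and 1 input library from the same kind of cells. No ChIP from cells without ectopic MYC was analysed here, so the values below do not separate ectopic from endogenous MYC. A peak list holds no expression level, so the cell type could not be checked against marker genes.

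Translation of most mRNAs starts when the cap-binding protein eIF4E, the scaffold eIF4G and the RNA helicase eIF4A assemble on the 5′ cap and recruit the small ribosomal subunit. Other initiation factors then bring the initiator tRNA and select the start codon, and elongation factors drive peptide synthesis. MYC, a transcription factor, pairs with MAX on DNA, prefers E-box sequences, of which CACGTG is the canonical form, and is known for raising ribosome and protein synthesis in growing and tumour cells. Several translation initiation factor genes, EIF4E among them, are described as MYC targets.

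The sequences before the start sites are shown first, because they set out where CACGTG lay in EIF4E, EIF4G1 and the helicase cofactor gene EIF4B. The RefSeq promoter table (GRCh38.p14) matched 9 of the 10 genes, all but EIF4EBP1, with 16 windows of 300 bases from 250 bases before to 50 bases after a start. EIF4G1 had 3 windows and EIF5A had 6, some of which overlap. The windows are on another build than the peaks, so their positions were not laid over the peaks, and a RefSeq start need not be the start used to assign peaks. The 250 bases before the start are printed 5′ to 3′ along the gene, and CACGTG, which reads the same on both strands, is in capitals. For EIF4G1 the first of the 3 windows is shown.
EIF4E (chr4:98929134-98929383, minus strand): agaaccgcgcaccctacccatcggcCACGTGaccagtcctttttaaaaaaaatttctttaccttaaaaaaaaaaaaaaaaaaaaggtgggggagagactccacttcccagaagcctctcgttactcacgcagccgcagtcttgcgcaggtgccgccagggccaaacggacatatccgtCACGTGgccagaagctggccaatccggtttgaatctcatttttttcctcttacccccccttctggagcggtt
EIF4G1 (chr3:184314356-184314605, plus strand): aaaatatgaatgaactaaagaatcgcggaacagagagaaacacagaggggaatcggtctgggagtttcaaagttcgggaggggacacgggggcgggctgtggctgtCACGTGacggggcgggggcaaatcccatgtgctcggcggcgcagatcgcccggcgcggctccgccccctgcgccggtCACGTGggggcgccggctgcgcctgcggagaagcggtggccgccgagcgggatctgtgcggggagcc
EIF4B (chr12:53006206-53006455, plus strand): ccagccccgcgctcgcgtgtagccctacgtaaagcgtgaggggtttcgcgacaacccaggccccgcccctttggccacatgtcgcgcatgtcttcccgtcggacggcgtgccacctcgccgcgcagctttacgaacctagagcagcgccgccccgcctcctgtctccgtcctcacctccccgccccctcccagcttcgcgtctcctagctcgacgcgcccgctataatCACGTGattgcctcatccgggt
EIF4E held CACGTG at 225 and 72 bases before its start, EIF4G1 at 144 and 67 bases, and EIF4B at 22 bases. Each distance runs from the first base of the motif to the start. These 3 of the 9 genes held the motif in at least 1 window. Over all genes of the table the share was 8.77% (27305 genes), and over its protein-coding genes it was 10.9% (15843 genes). EIF4E and the first window of EIF4G1 each held 2 copies, as did 0.664% of all 35116 windows with 2 or more.

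EIF4A1 and EIF3B are shown next, because they had strong MYC peaks (values below) and no CACGTG in these windows. Here the capitals mark GGGCGG or its reverse complement CCGCCC, a GC box of the kind bound by SP-family factors.
EIF4A1 (chr17:7572575-7572824, plus strand): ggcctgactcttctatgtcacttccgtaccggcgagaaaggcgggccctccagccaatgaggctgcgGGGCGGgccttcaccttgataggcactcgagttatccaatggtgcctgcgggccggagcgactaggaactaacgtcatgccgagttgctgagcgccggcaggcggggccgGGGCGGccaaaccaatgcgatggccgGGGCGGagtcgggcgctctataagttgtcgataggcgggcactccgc
EIF3B (chr7:2354577-2354826, plus strand): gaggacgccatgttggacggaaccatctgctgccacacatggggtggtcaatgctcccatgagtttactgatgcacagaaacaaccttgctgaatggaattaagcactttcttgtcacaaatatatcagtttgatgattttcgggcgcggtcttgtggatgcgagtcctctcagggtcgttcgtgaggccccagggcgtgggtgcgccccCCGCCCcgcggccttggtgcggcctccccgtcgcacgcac
EIF4A1 had 3 copies within these bases and EIF3B had 1. This motif was common: 7 of the 9 genes held it, all but EIF4E and EIF2S1, against 64.3% of protein-coding genes. A motif match describes letters in a window and is not a binding site, and its absence says nothing about factors that bind there.

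Other E-box forms were searched on both strands in the same windows. CATGCG, or its reverse complement CGCATG, lay in 4 genes (EIF4B, EIF2S1, EIF5A and EEF1A1), against 10.3% of protein-coding genes. CATGTG or CACATG lay in 5 genes (EIF4G1, EIF4B, EIF3B, EIF5A and EEF2), against 11.5%. CACGCG or CGCGTG lay in EIF4B and EIF5A, against 18.1%, and CACGAG or CTCGTG in none of the 9, against 9.61%. EIF5A had 6 windows and so more chances to hold any motif than a gene with 1 window. EIF2S1 and EEF2 illustrate these forms, with CATGCG in capitals in the former (overlapping copies on both strands) and CACATG in the latter.
EIF2S1 (chr14:67360078-67360327, plus strand): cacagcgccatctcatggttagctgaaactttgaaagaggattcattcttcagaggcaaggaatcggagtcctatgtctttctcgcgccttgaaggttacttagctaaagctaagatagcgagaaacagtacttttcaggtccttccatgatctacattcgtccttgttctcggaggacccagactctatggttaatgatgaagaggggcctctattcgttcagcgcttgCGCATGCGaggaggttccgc
EEF2 (chr19:3985464-3985713, minus strand): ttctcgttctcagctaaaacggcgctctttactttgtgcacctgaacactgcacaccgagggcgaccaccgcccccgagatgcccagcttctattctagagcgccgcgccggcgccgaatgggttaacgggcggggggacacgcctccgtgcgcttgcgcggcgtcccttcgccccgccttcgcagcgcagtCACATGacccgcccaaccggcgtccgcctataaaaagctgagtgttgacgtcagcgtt
The windows were rich in GC (median 63.0% over the 16, range 50.7% to 78.0%, against 58.7% over all windows). Their CpG content was 0.97 of that given by their C and G content at the median, against 0.58 over all windows. All windows include those of genes that do not code for protein, and the 16 count EIF5A and EIF4G1 more than once. Medians over windows of protein-coding genes alone were not computed. The windows of EIF4E and EIF2S1, at 50.7% and 51.7% GC, and the first 2 of EIF5A were the least GC-rich.

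MYC peaks were found at every gene, and each gene had more than 1. The 10 of 10 genes with a summit within 5 kb stand beside 4.63% of all genome positions, counted over the span of peaks on each of chromosomes 1 to 22 and X. A position is not a promoter, and MYC is known to bind mostly near genes, so the share of all promoters with a peak would be the closer comparison; it was not computed, because no GRCh37 annotation was used here. There were 2 peaks at 6 genes, 3 peaks at EIF4G1, EIF4EBP1 and EEF2, and 4 at EIF5A. The smallest gap between peaks of a gene was 73 bp, at EEF1A1. Whether peaks so close to each other are separate sites was not tested. Of all genome positions, 1.06% had 2 or more summits within 5 kb, which is 23.0% of the positions that had any.

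**Figure D1:**
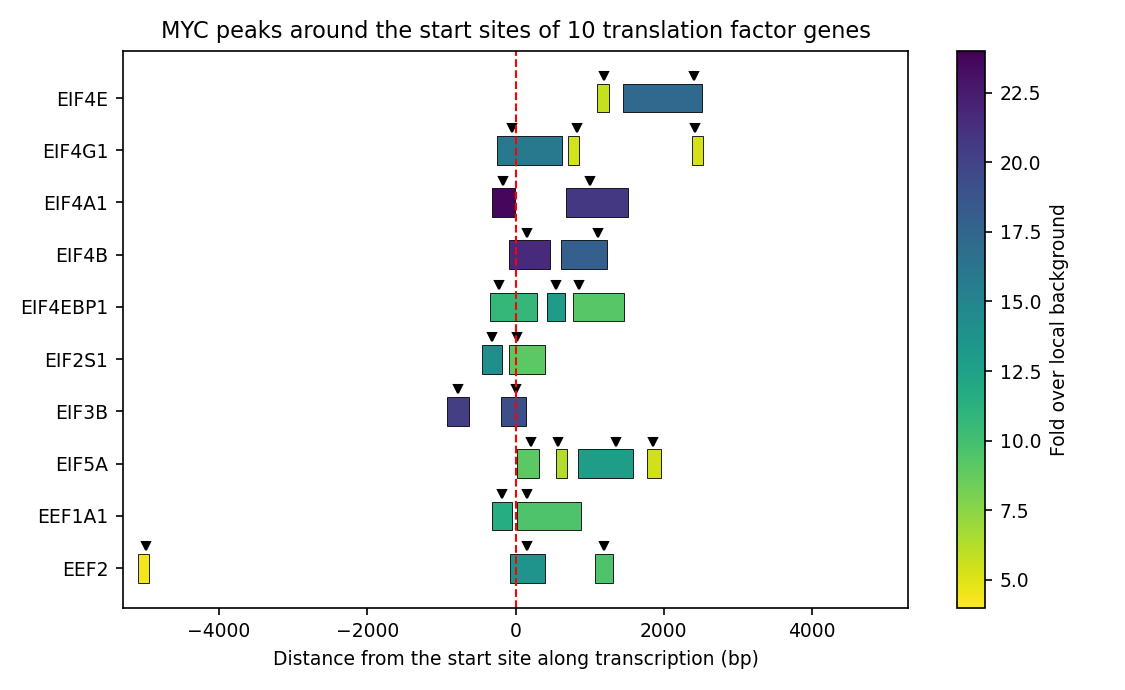
Each bar is a MYC peak from its first to its last base, placed by distance from the start site along transcription (bp, negative before the start), with colour for the fold over the local background and a triangle at the summit. At 9 genes a summit lay within 250 bp of the start (dashed line), and at EIF4E both peaks lay over 1 kb after it.

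At each gene at least 1 peak lay above the upper quartile of the list by fold. The fold of a peak is the peak caller's ratio of ChIP fragments to the local background at the summit, with 1 added to each, and is the authors' value. The strongest peak of the 10 genes ranged from a fold of 11.64 at EEF1A1 to 23.61 at EIF4A1, with a median of 15.10. The strongest of several peaks is higher by construction than a single peak. For the peaks nearest to the start the median fold was 12.17, and only EIF4E, at 5.78, lay below the 6.40 of the list's median. A fold of 10 or more was reached at all 10 genes, against 0.879% of genome positions with such a summit within 5 kb and 19.0% of the positions that had any summit within 5 kb. Of the 25 single peaks, 14 (56.0%) reached it, against 15.4% of all peaks. Folds of at least 20 were seen in 4 peaks, against 1.43% of the list: both peaks of EIF4A1 and the strongest of EIF4B and EIF3B. The median fold over the 25 peaks was 11.64, against 6.40 over the whole list (quartiles 5.17 and 8.38), and 6 of the 25 lay below the list's median. The peaks of a gene share a promoter and are not independent of each other. With 1 library there is no replicate error, and intervals below are 95% exact Poisson intervals of the fragment count at the summit. They cover the counting error of the ChIP fragments only, with the background held fixed. Fragments were counted with no molecular identifiers and may be copies of 1 molecule, which the intervals do not cover.

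**Figure D2:**
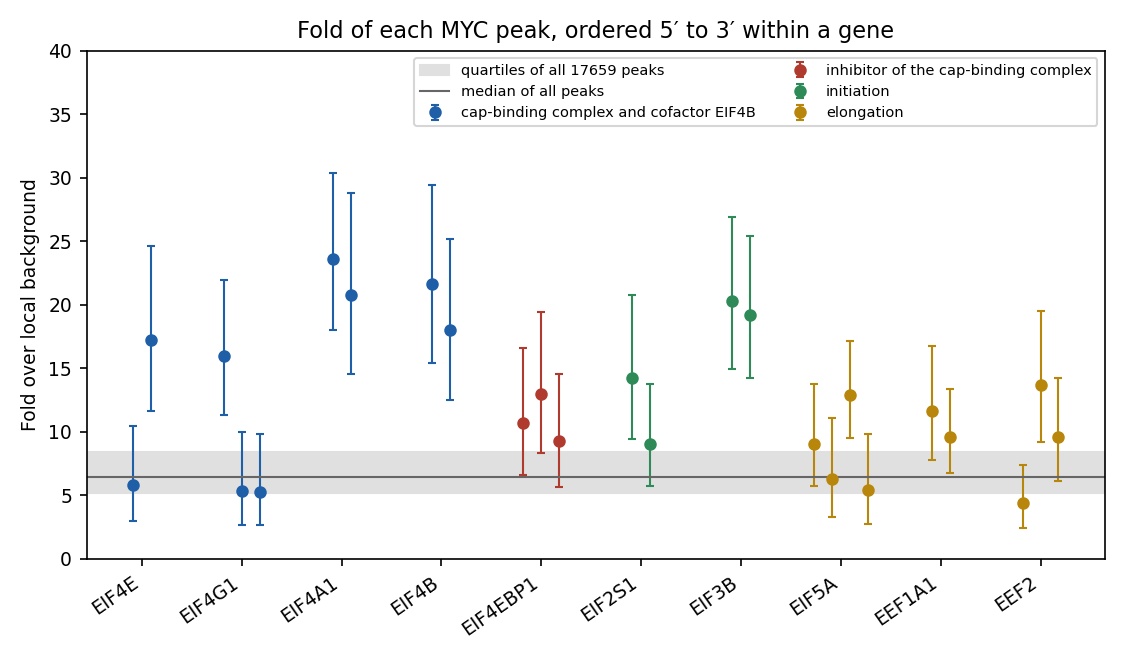
The fold over the local background of each peak is plotted by gene, from 5′ to 3′ within a gene, with the 95% Poisson interval of the fragment count carried over to the fold at a fixed background. The grey band and line give the quartiles and median of all peaks, and the strongest peak of each gene lies above the band.

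Among the genes of the cap-binding complex and its cofactor, EIF4E encodes the protein that binds the mRNA cap. On chromosome 4 it had a narrow peak at 99850523 to 99850684, with the summit 1193 bp after the start, 9 fragments (4.12 to 17.1) and a fold of 5.78. A broad peak of 1075 bp followed at 99849265 to 99850339, with the summit 2414 bp after the start, 28 fragments (18.6 to 40.5) and a fold of 17.22 (11.64 to 24.62). The broad peak was the widest of the 25 and stood in rank 475 of the list by fold. EIF4E was the only one of the 10 without a summit within 1 kb of the start used. Another start would change these distances, and which start the cells use was not tested. No other peak lay within 50 kb, and the next was 64800 bp before the start with a fold of 8.76.

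EIF4G1 encodes the scaffold that joins eIF4E to eIF4A and to the ribosome through eIF3. Its main peak, on chromosome 3 at 184032109 to 184032988, covered the start, with the summit 46 bp before it, 36 fragments (25.2 to 49.8) and a fold of 15.95 (11.30 to 21.91). Weaker peaks at 184033065 to 184033206 and 184034731 to 184034880 had their summits 825 and 2424 bp after the start. Each rested on 8 fragments (3.45 to 15.8), and their folds of 5.35 and 5.29 were below the median of the list. EIF4G1 thus had 1 dominant peak at its start, while the others were near the lower quartile of all peaks.

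EIF4A1 encodes the helicase that unwinds the 5′ end of mRNAs, and it had the strongest MYC peak of the 10 genes. This peak, on chromosome 17 at 7475707 to 7476011, had its summit 166 bp before the start, 58 fragments (44.0 to 75.0) and a fold of 23.61 (18.02 to 30.40), rank 128 by fold and 76 by significance. A second peak at 7476702 to 7477542 had its summit 999 bp after the start, 34 fragments (23.5 to 47.5) over the lower background of 0.683, and a fold of 20.79. The start used lay between them, 13 bp beyond the end of the first peak. As at EIF4E, another start would change these distances, and which start the cells use was not tested. In RefSeq the read-through transcript SENP3-EIF4A1 runs across this start, and SENP3 and the small nucleolar RNA genes SNORA48 and SNORD10 lie within 5 kb of it, so the peaks cannot be given to EIF4A1 alone by position.

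EIF4B encodes a cofactor that stimulates the eIF4A helicase. Its peak on chromosome 12 at 53399860 to 53400413 covered the start, with the summit 158 bp after it, 38 fragments (26.9 to 52.2) and a fold of 21.60 (15.44 to 29.44). The second peak, at 53400555 to 53401180, began 141 bp further on and had 32 fragments (21.9 to 45.2) and a fold of 17.99. At EIF4A1 and EIF4B both peaks were thus strong, whereas at EIF4E and EIF4G1 a single peak was.

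EIF4EBP1 encodes 4E-BP1, which binds eIF4E and keeps it from eIF4G until mTOR phosphorylates it. The gene of this inhibitor carried 3 peaks on chromosome 8, at 37887672 to 37888311, 37888447 to 37888693 and 37888792 to 37889489. Their summits lay 228 bp before and 548 and 854 bp after the start, and the first peak covered the start. They rested on 18 (10.7 to 28.4), 22 (13.8 to 33.3) and 17 (9.90 to 27.2) fragments, and their folds were 10.69, 13.01 and 9.29. The intervals of the 3 counts overlap widely, so no peak stood out from the others, and gaps of 98 to 135 bp separated them. The next peak outside was 74500 bp away.

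EIF2S1 encodes the alpha subunit of eIF2, which carries the initiator tRNA and is phosphorylated in the integrated stress response. On chromosome 14, a peak at 67826586 to 67826852 had its summit 322 bp before the start, 25 fragments (16.2 to 36.9) and a fold of 14.25. A peak at 67826945 to 67827425 covered the start, with the summit 13 bp after it, 20 fragments (12.2 to 30.9) and a fold of 9.05. RefSeq places the start of ATP6V1D, a subunit gene of the vacuolar proton pump, within 5 kb before EIF2S1 and on the opposite strand. ATP6V1D was the only gene of the RefSeq promoter table with a start that close to any of the 9 matched genes, and the upstream peak cannot be assigned to either gene by position. In RefSeq the gene GPHN, a scaffold of inhibitory synapses, runs across the EIF2S1 start. No further peak lay within 50 kb, and the next was 118660 bp away.

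EIF3B encodes a core subunit of eIF3, the complex that holds the small ribosomal subunit during initiation. Its peaks on chromosome 7 were of nearly equal height. The upstream peak, at 2393550 to 2393846, had its summit 776 bp before the start, 46 fragments (33.7 to 61.4) and a fold of 20.26 (14.95 to 26.88). The peak over the start, at 2394284 to 2394620, had its summit 5 bp after it, 47 fragments (34.5 to 62.5) and a fold of 19.20. They were 297 and 337 bp wide, and the 634 bp they covered were the least of any gene, although their 93 fragments in sum were the most. SNX8 lies within 5 kb of the start in RefSeq. The next peak outside, 40262 bp before the start, was also strong, with a fold of 18.97.

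EIF5A encodes a factor that carries the modified amino acid hypusine, made from the polyamine spermidine, and that helps ribosomes through sequences that stall. It had 4 peaks on chromosome 17, all after the start used, with summits at 213, 569, 1356 and 1848 bp. The strongest, with its summit at 1356 bp, was at 7211165 to 7211907, with 46 fragments (33.7 to 61.4) over a background of 2.64 and a fold of 12.91 (9.53 to 17.13). The first, at 7210344 to 7210640, had 20 fragments and a fold of 9.05, the same values as the peak over the EIF2S1 start. The peaks with summits at 569 and 1848 bp had 10 and 9 fragments and folds of 6.29 and 5.42. RefSeq lists 6 windows for this gene, so peaks after the start used here can lie before another start. GPS2, a neighbouring gene, also lies within 5 kb in RefSeq.

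EEF1A1 encodes the abundant factor that delivers aminoacyl-tRNA to the ribosome. On chromosome 6, its peaks lay on either side of the start and left it uncovered, with 73 bp between them. The peak before it, at 74230808 to 74231074, had its summit 181 bp upstream, 27 fragments (17.8 to 39.3) and a fold of 11.64 (7.81 to 16.75). The peak after it, at 74229868 to 74230734, had its summit 159 bp downstream, 34 fragments (23.5 to 47.5) and a fold of 9.62. The downstream peak had more fragments and the higher −log10 p (26.37 against 25.93), but its background of 2.64 was also higher than the 1.41 of its neighbour. The antisense gene EEF1A1-AS1 lies within 5 kb in RefSeq. EEF1A1 was the only gene whose peak of highest fold was not also its most significant.

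EEF2 encodes the factor that moves the ribosome along the mRNA by a codon. Its main peak, on chromosome 19 at 3985064 to 3985539, covered the start, with the summit 149 bp after it, 28 fragments (18.6 to 40.5) and a fold of 13.65 (9.23 to 19.52). A peak at 3984146 to 3984384, with the summit 1190 bp after the start, had 22 fragments and a fold of 9.56. The peak at 3990411 to 3990557 had its summit 4988 bp before the start, just inside the limit of 5 kb, and was the weakest of the 25, with 12 fragments and a fold of 4.36. In RefSeq the small nucleolar RNA gene SNORD37 lies within 5 kb of the EEF2 start. The nearest summits beyond that limit were at EIF4A1, 6974 bp after the start with a fold of 6.03, and at EIF5A, 8511 bp after it with a fold of 5.18.

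**Figure D3:**
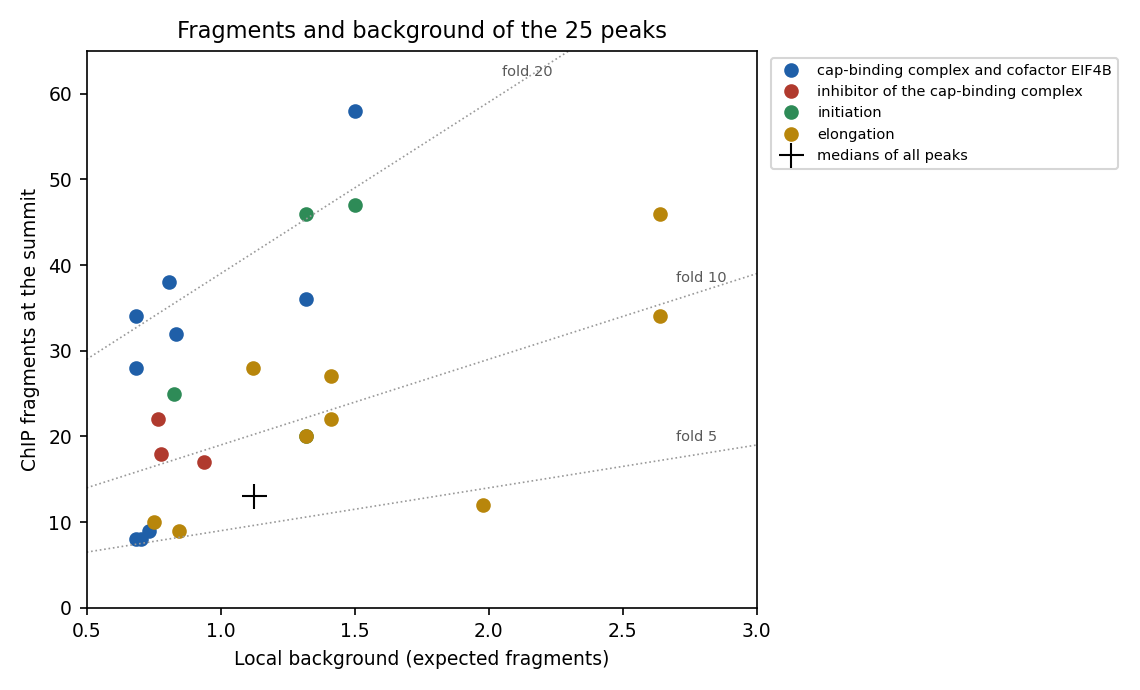
ChIP fragments at the summit are plotted against the local background in expected fragments for the 25 peaks, with dotted lines of equal fold and a cross at the medians of all peaks (13 fragments and 1.12). The highest point, 58 fragments, is the upstream peak of EIF4A1, the pair at a background of 2.64 belongs to EIF5A and EEF1A1, and peaks of EIF2S1 and EIF5A share the point at 20 fragments.

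By role, the strongest peaks of the 4 genes of the cap-binding complex and its cofactor EIF4B had folds of 15.95 to 23.61 and those of the 3 elongation genes 11.64 to 13.65. The ranges did not overlap, and EIF2S1 (14.25) lay between them, EIF3B (20.26) within the former and the inhibitor EIF4EBP1 (13.01) within the latter. This separation was lost when the peak nearest to the start was taken in place of the strongest: EIF4E then had a fold of 5.78, below the 9.05 of EIF5A, the 9.62 of EEF1A1 and the 13.65 of EEF2. No test was made, since genes are not replicates. In fragments the groups did overlap, with 28, 36, 58 and 38 at the strongest peaks of EIF4E, EIF4G1, EIF4A1 and EIF4B and 46, 27 and 28 at those of EIF5A, EEF1A1 and EEF2. The backgrounds of the former 4 peaks were 0.684 to 1.50 and of the 3 elongation peaks 1.12 to 2.64. The background enters the fold by definition, and the part of the background in the difference between roles was not tested.

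The order of single genes was uncertain. From the highest, the strongest peaks ranked EIF4A1, EIF4B, EIF3B, EIF4E, EIF4G1, EIF2S1, EEF2, EIF4EBP1, EIF5A and EEF1A1. Every neighbouring pair in this order had overlapping 95% intervals of the fold. Of all 45 pairs of genes, only EIF4A1 with EIF5A and EIF4A1 with EEF1A1 had intervals that did not overlap. These intervals hold the background fixed. In fragments at the peaks of highest fold, EIF4A1 (44.0 to 75.0) lay apart from EEF1A1 (17.8 to 39.3) but overlapped EIF5A (33.7 to 61.4). The other EEF1A1 peak had more fragments, 34 (23.5 to 47.5), and its interval overlapped that of EIF4A1. The backgrounds of the EIF4A1 and EIF5A peaks were 1.50 and 2.64. The 3 genes with CACGTG in a RefSeq window had folds of 17.22 (EIF4E), 15.95 (EIF4G1) and 21.60 (EIF4B). These lay within the range of the 6 matched genes without it, from 11.64 (EEF1A1) to 23.61 (EIF4A1).

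**Figure D4:**
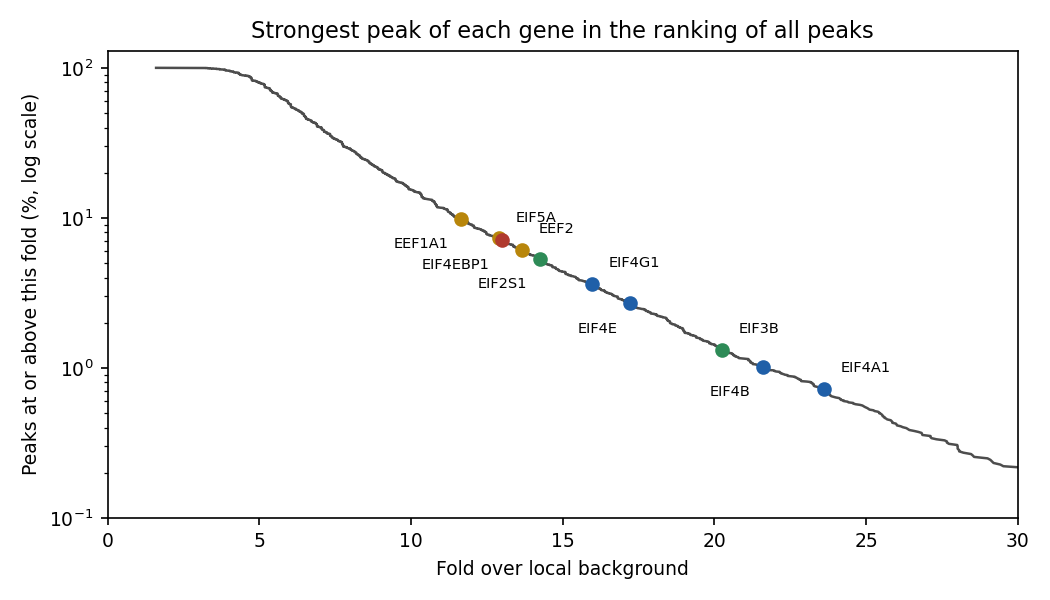
The line gives the percent of all 17659 peaks at or above each fold (log scale), and the points mark the strongest peak of each gene, coloured by role as in the plot of folds. EIF4A1 has 0.719% of all peaks above it and EEF1A1, the lowest of the 10, has 9.81%.

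Most of the 25 assigned summits lay close to the start, within a window of 5 kb that the rule itself set. Summits beyond 5 kb are not counted here, and no share for other peaks was computed. At 9 genes a summit lay within 250 bp of the start, and at 6 genes (EIF4G1, EIF4B, EIF4EBP1, EIF2S1, EIF3B and EEF2) a peak covered it. Of the 25 summits, 17 lay within 1 kb and 22 within 2 kb. After the start there were 18 and before it 7, and 7 genes had summits on both sides, while EIF4E, EIF4B and EIF5A had them only after it. The strongest peak was before the start at 5 genes and after it at 5, and it was the peak nearest to the start at EIF4G1, EIF4A1, EIF4B and EEF2.

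Width and spacing are given beside the whole list, with no test of the difference. The median width of the 25 peaks was 305 bp, against 226 bp over all peaks, and 9 of the 25 (36.0%) exceeded 500 bp, against 6.82% of the list. Within 1 kb of another peak's edge lay 23 of the 25 (92.0%), against 32.8% of the list; the others were the distal peaks of EIF4G1 and EEF2. Peaks covered between 634 bp (EIF3B) and 1585 bp (EIF4EBP1) per gene. The median background of the 25 peaks, 0.937, was lower than the 1.12 of all peaks, and their median pileup of 25 fragments was higher than the 13 of the list. These are descriptions of 1 library, and whether genes of other kinds with peaks at their starts differ from them was not tested.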

How the data were processed

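The members and motif lists were chosen with earlier results of these data known. The authors deposited 1 list of MYC peaks in narrowPeak layout; the filter applied to it is not stated in the labels. Per the submitters' processing notes, GRCh37, STAR 2.5.2a, SAMtools 1.3, Picard 2.7.1, MACS2 2.1.0 and bedtools were used, with no role or order given. The peak caller's deposited columns are the fold (a ratio to the local background), the −log10 p, the −log10 q and a score, 10 times the −log10 q rounded down. Positions are 1-based GRCh37.

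Fragments and background at a summit were recovered from the fold, read as (fragments + 1) / (background + 1), and the −log10 p, read as the upper Poisson tail beyond the count. Whole counts matched within 0.001 in 100.0% of peaks. In 1817 simulated peaks, from which those of low fold had been left out, the true count was recovered in 100.0%. Library depth is otherwise unknown, and the lowest count was 5 fragments. All 10 genes are named, by role, and a neighbour where RefSeq places it within 5 kb. Strand and sequences came from RefSeq (GRCh38.p14), except the strand of EIF4EBP1, entered by hand. Python 3.11.15, numpy 2.4.6, pandas 2.3.3, scipy 1.17.1 and matplotlib 3.10.9 were used. Alternatives changed the window, the threshold, the peak chosen for a gene and the bases searched.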

Additional observations from a re-analysis of the deposited data

How the results depend on the processing

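Of 30 alternatives, 22 were counted as unchanged and 8 as moved. A count was unchanged within 1.5 times, and the fold of a gene within its Poisson interval. For the median fold the limits were the medians of the genes' lower and upper limits, 10.41 and 21.34. These are not an interval of the median itself. The number of genes with a peak was 10 with summits within 2 kb and at a −log10 q of at least 5 or 10. It was 9 within 1 kb, where EIF4E had none. With summits within 10 kb, or any base of the peak within 5 kb, it was also 10. Those wider settings contain the main one, so the number of genes could not change there. The number of peaks ran from 17 (1 kb) to 27 (10 kb). The median fold of the strongest peaks, 15.10, was 14.25 within 1 kb and 12.17 for the nearest peaks. With the nearest peak in place of the strongest, the fold fell outside its interval at EIF4E (5.78), EIF2S1 (9.05) and EIF5A (9.05), and the role ranges of cap-binding and elongation genes overlapped. At EIF4G1, EIF4A1, EIF4B and EEF2 the nearest peak was the strongest, so the fold there could not change. The share of genome positions near a summit changes by construction. All its alternatives were counted as moved, without the limit of 1.5 times. It was 1.05% within 1 kb, 1.98% within 2 kb and 8.60% within 10 kb. For peaks with a −log10 q of at least 5 and 10 it was 3.48% and 1.67%. CACGTG lay in 3 genes also when only the bases before the start were searched. No paired analysis was possible because there was 1 ChIP library and 1 input library, and no replicate could be left out. Sites with too few fragments to be called are not in the list, so weaker binding was not detectable at this depth.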

Other observations

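EIF5A and EIF4A1 lie on the same arm of chromosome 17, with 265.7 kb between the start sites used. Between them, outside the 5 kb around either start, 14 further MYC peaks were called. Within 50 kb of the EIF5A start there were 11 summits, the most of the 10 genes, and within 50 kb of EIF4A1 there were 7. At EIF4E, EIF2S1 and EEF1A1 the 2 peaks near the start were the only ones within 50 kb, and at EIF4EBP1 the 3 near the start were. Over the 10 genes the number of summits ran from 2 to 11 within 50 kb and from 2 to 4 within 5 kb.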
